A study of Mus musculus with 2 samples.

Results

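The 41 genes described here are the core of the mouse cell-cycle machinery: cyclins (Ccna2, Ccnb1, Ccnb2, Ccnd1, Ccnd2, Ccnd3, Ccne1, Ccne2), cyclin-dependent kinases (Cdk1, Cdk2, Cdk4, Cdk6, Cdk7), kinase inhibitors (Cdkn1b, Cdkn1c, Cdkn2a, Cdkn2b, Cdkn2c, Cdkn2d, Cdkn3), the retinoblastoma family (Rb1, Rbl1, Rbl2), the E2F factors E2f1 to E2f8, the Cdc genes Cdc6, Cdc7, Cdc20, Cdc25a, Cdc25b, Cdc25c, Cdc27 and Cdc45, and Myc and Mycn. They were chosen by name from the 21887 protein-coding genes of the RefSeq table for GRCm38.p6, and all 41 were found in it. No rule on their own values was used, but the choice was made with earlier results of these data known. Binding of Hnf4a was mapped in iHepCs, hepatocyte-like cells into which embryonic fibroblasts of C57BL/6J mice turn when retroviruses force them to express Foxa2 and Hnf4a. The assay was ChIL-seq, in which an antibody-linked probe directs a transposase to tag nearby DNA for transcription inside fixed cells. There is 1 group, with the genotype label WT, and it holds 2 biological replicates of 10000 cells per well. The cells grew in a hepatocyte medium with 100 nM dexamethasone and 20 ng/ml each of the hepatocyte and epidermal growth factors, and both growth factors act as mitogens on hepatocytes. Hnf4a is itself a retrovirally forced factor here, the labels call the cells fibroblasts from embryo, and the peak names give the libraries a common lot number. No control samples were analysed, and lists of binding sites hold no expression values, so neither the cell type nor the growth state could be checked against marker levels.

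Cyclins switch on their kinase partners in turn. Cyclin D with Cdk4 or Cdk6 begins to phosphorylate the retinoblastoma proteins in G1, which frees the activating E2F factors, and these turn on cyclin E and the genes of DNA replication. Cyclin A and cyclin B with Cdk2 and Cdk1 then carry the cell through S phase and into mitosis. In the liver most hepatocytes are quiescent and re-enter this cycle after injury, and Hnf4a is known in rodents as a factor that restrains hepatocyte proliferation.

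Each deposited list gives peak summits, single bases with the authors' −log10 q-value, which is called the score below. Replicate 1 holds 21283 summits (median score 7.32) and replicate 2 holds 24097 (median score 6.67). Summits of both lists within 100 bp of each other were taken as a shared region, and there are 9193 of these. The read depth behind the lists is unknown, so a gene without a summit had none past the authors' threshold, and nothing more can be said of its occupancy. The gene table has no exons, so summits are placed only as inside a gene or at a distance from its ends.

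Hnf4a summits lay beside most of the 41 genes in at least 1 replicate, and beside 17 of them both replicates placed a summit within 100 bp of each other. These 17 are Ccnd2, Ccnd3, Ccne1, Cdk2, Cdk4, Cdk6, Cdkn1b, Cdkn2a, Cdkn2d, Cdkn3, Rbl2, E2f1, E2f2, E2f3, Cdc6, Cdc25a and Cdc25c. They are 41.5% of the 41 genes, and each has a shared region within 10 kb of a gene end, as do 20.6% of all protein-coding genes. Replicate 1 alone had a summit within 10 kb of 25 members, or 61.0%, against 39.4% of all protein-coding genes. Replicate 2 alone had one for 31 members, or 75.6%, against 41.9%. Both lists and the shared regions thus gave a higher share for the members than for the genome's genes.

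The same was seen closer to the gene ends. Within 1 kb, 11 members (26.8%) had a shared region, against 8.73% of all protein-coding genes. Replicate 1 gave 18 members (43.9%) against 18.2% of all genes, and replicate 2 gave 19 (46.3%) against 18.0%. Within 50 kb, 27 members (65.9%) had a shared region against 46.8%, while replicate 1 alone reached 40 members (97.6%) against 69.3% and replicate 2 alone 39 (95.1%) against 72.4%. Inside the genes the shares lay nearer to each other: 8 members (19.5%) held a shared region against 13.7% of all genes. Summits inside the gene were found for 12 members (29.3%) in replicate 1 against 26.3%, and for 15 (36.6%) in replicate 2 against 28.4%. In percentage points, the members thus differed least from all genes inside the gene.

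Gene size and promoter type were set beside these counts. The members had a median length of 15.6 kb against 17.2 kb for all protein-coding genes, and a median of 2 other genes within 50 kb against 3. Their promoters, however, were richer in CpG: the median ratio of observed to expected CpG was 0.849 over 37 promoter windows of members and 0.567 over 21263 windows of all genes. Among genes with a ratio of 0.6 or more, 15 of 30 members (50.0%) had a shared region within 10 kb, against 28.3% of the 8896 such genes. The share of all genes was thus higher in this class, and the members' share stayed above it. Of the 31 members with a promoter window 30 fall in this class, so it mainly leaves out members without a window. Among those left out, only Ccnd2 and Cdc25c had a shared region within 10 kb. The class does not match the CpG ratio of the members, and whether promoter type accounts for the difference was not tested.

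**Figure D1:**
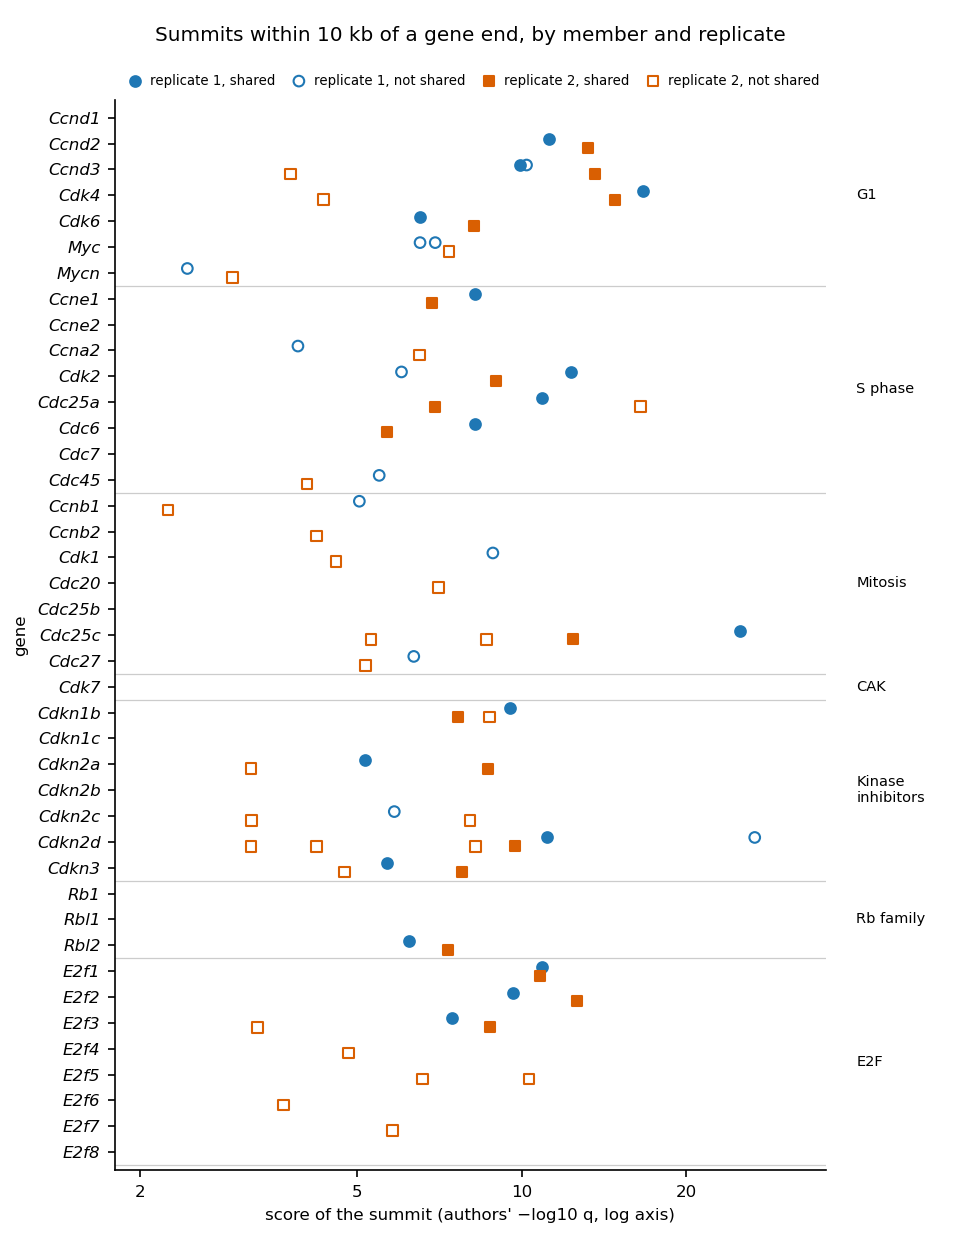
Scores of all summits within 10 kb of an end of each gene, on a log axis, with circles for replicate 1, squares for replicate 2 and filled symbols for summits shared within 100 bp. Genes are grouped by role, CAK standing for the CDK-activating kinase, and rows with no symbol are the 10 members without a summit in this window in either list.

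The G1 group holds the D-type cyclins, their kinases Cdk4 and Cdk6, and the growth-promoting factors Myc and Mycn. Of these 7 genes, 4 had a shared region within 10 kb. Ccnd2, a D-type cyclin, carried one inside the gene, 999 bp from an end (chr6:127151183-127151196), with scores of 11.2 in replicate 1 and 13.2 in replicate 2. For Ccnd3, the D-type cyclin prominent in lymphoid cells, the shared region lay 2970 bp upstream of the start (chr17:47502054-47502109), inside the neighbouring gene Taf8, with scores of 9.91 and 13.6. A second pair of summits lay 596 bp and 767 bp past the other end of Ccnd3 and scored 10.2 and 3.77, but these summits are 171 bp apart and so are not counted as shared. Ccnd1, the D-type cyclin most closely tied to mitogen signalling, had no summit within 10 kb in either list.

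Both G1 kinases had shared regions. Cdk4, the main partner of cyclin D in many tissues, had one 3132 bp beyond its 3′ end (chr10:127070412-127070428), inside Tspan31, which scored 16.7 in replicate 1 and 14.8 in replicate 2. At its own start, Cdk4 had only a summit of replicate 2, 310 bp upstream, with a score of 4.33. Cdk6, the second partner of cyclin D and the longest of the 41 genes at 190.0 kb, held 4 summits of replicate 1 and 8 of replicate 2, with 3 shared regions among them. The shared region nearest to its 5′ end lay 4929 bp inside the gene (chr5:3345894-3345972) and scored 6.51 and 8.18. The best-scored lay 21431 bp from the 3′ end (chr5:3509545-3509609) and scored 20.1 and 17.7, and the third scored 13.0 and 13.6. A further pair inside Cdk6, scoring 7.52 and 6.11, was 108 bp apart and so not shared. Just outside the window, 10186 bp before the gene, a further shared region scored 12.7 and 10.3.

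Myc had 2 summits of replicate 1 within 10 kb, scoring 6.51 and 6.94, and 1 of replicate 2 that scored 7.36. The closest pair was 107 bp apart, which is just beyond the 100 bp that count as shared. Mycn had 1 summit of each list, 633 bp apart, with scores of 2.44 and 2.95, close to the lowest scores deposited (2.04 and 2.01). Myc thus had nearly coincident summits with scores close to the medians of their lists, while both Mycn summits stood near the bottom.

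In the S-phase group, 4 of 8 genes had a shared region, and 3 of the 4 regions lay within 1 kb of the gene. Ccne1, the cyclin that drives entry into S phase with Cdk2, had summits 245 bp upstream of its start in replicate 1 and 289 bp upstream in replicate 2, with scores of 8.20 and 6.85. Cdc6, which loads the replicative helicase at origins, had a summit on the same base in both lists (chr11:98907823), 328 bp upstream of an annotated start, scoring 8.20 and 5.67. Cdc25a, the phosphatase that activates Cdk2, had summits 165 bp and 198 bp upstream of its start, scoring 10.9 and 6.92, and replicate 2 had a further summit of 16.5 located 1173 bp inside the transcribed region. The shared summits at these promoters had scores from 5.67 to 10.9, below the unshared one inside Cdc25a.

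Cdk2, the S-phase kinase, had its shared region 1489 bp beyond the 3′ end (chr10:128696449-128696450), inside Pmel, with scores of 12.3 and 8.97. A summit 208 bp upstream of the Cdk2 start, with a score of 6.02, was found in replicate 1 only. Ccna2, the cyclin of S phase and G2, had summits of both lists inside the gene, 893 bp and 678 bp from an end, scoring 3.89 and 6.50 but 215 bp apart. Cdc45, a subunit of the active replicative helicase, had summits 367 bp and 246 bp past its start, scoring 5.48 and 4.04 and 121 bp apart. At Ccna2 and Cdc45 the replicates thus placed summits near the same gene end but not within 100 bp. Ccne2, the other E-type cyclin, and Cdc7, the kinase that fires origins, had no summit within 10 kb in either list.

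In the mitotic group only Cdc25c, a phosphatase that activates Cdk1 at mitotic entry, had a shared region within 10 kb. It lay 143 bp from an end of the gene and scored 25.1 in replicate 1 and 12.4 in replicate 2, the highest score of replicate 1 among the 17 shared regions within 10 kb. Ccnb1, the main mitotic cyclin, had a summit 244 bp upstream of its start in replicate 1 (5.04), while the summit of replicate 2 lay 8482 bp away, near the other end (2.25). Cdk1, the mitotic kinase, likewise had a summit 213 bp upstream in replicate 1 (8.85) and one inside the gene, 12913 bp away, in replicate 2 (4.57). Summits at the starts of these genes thus came from a single list.

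Cdc20, an activator of the anaphase-promoting complex, showed the reverse, with a summit of replicate 2 alone, 216 bp upstream of the start, scoring 7.04. Cdc27, a subunit of that complex, had a summit of replicate 1 at 91 bp past its start (6.34) and one of replicate 2 at 5669 bp upstream (5.17). Ccnb2, the second B-type cyclin, had only a summit of replicate 2 at 6634 bp (4.21), and Cdc25b, a phosphatase that acts before mitosis, had none in this window.

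Counted by phase, a shared region within 10 kb was found for 4 of 7 G1 genes (57.1%), 4 of 8 S-phase genes (50.0%) and 1 of 7 mitotic genes (14.3%), beside 20.6% of all genes. The single lists separate the phases less. Replicate 1 had summits for 6 G1 (85.7%), 6 S-phase (75.0%) and 4 mitotic genes (57.1%), beside 39.4% of all genes. Replicate 2 had them for 6 genes of each phase (85.7%, 75.0% and 85.7%), beside 41.9%. Within 50 kb the shared counts were 6 (85.7%), 5 (62.5%) and 3 (42.9%), beside 46.8% of all genes. Within 1 kb, shared regions were found for 1 G1 gene (14.3%), 3 S-phase genes (37.5%) and 1 mitotic gene (14.3%), beside 8.73%. Replicate 1 placed summits there for 2 G1 (28.6%), 6 S-phase (75.0%) and 4 mitotic genes (57.1%), beside 18.2%. Replicate 2 did so for 4 G1 (57.1%), 5 S-phase (62.5%) and 3 mitotic genes (42.9%), beside 18.0%. The order of the phases thus changed with the window and the list. Of the 6 mitotic genes without a shared region within 10 kb, 3 had summits of both lists there and 2 a summit of replicate 2 alone. With 7 or 8 genes in a group and 1 condition, no test of the difference between phases was made.

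**Figure D2:**
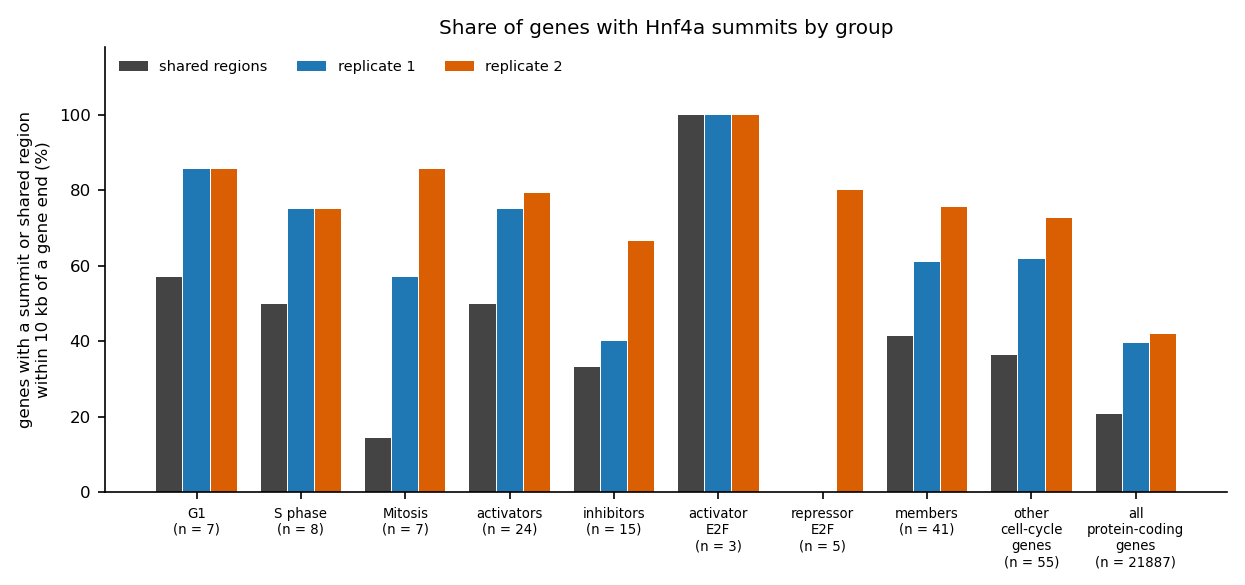
Percentage of genes with a shared region (grey), a replicate 1 summit (blue) or a replicate 2 summit (orange) within 10 kb of a gene end, by group, with the number of genes under each group. The mitotic genes show 14.3% for shared regions beside 57.1% and 85.7% for the single lists, and the repressor E2F genes have no grey or blue bar.

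The kinase inhibitors oppose these engines. Cdkn1b, the Kip-family inhibitor of Cdk2 that maintains quiescence, had a shared region 3088 bp past its 3′ end (chr6:134928578-134928649), scoring 9.50 in replicate 1 and 7.64 in replicate 2. Replicate 2 also had a summit 3213 bp upstream of the Cdkn1b start, with a score of 8.72. Cdkn2a, which encodes an INK4 inhibitor of Cdk4 and Cdk6 and the p53 activator Arf from separate starts, held a shared region inside the gene, 6605 bp from the outer start (chr4:89288010-89288018), with scores of 5.16 and 8.67. Cdkn3, a phosphatase that acts on Cdk2, had summits 257 bp and 269 bp upstream of its start, scoring 5.67 and 7.77. Distances from a gene end thus ran from promoter-proximal, at Cdkn3, to several kilobases, outside the gene at Cdkn1b and inside it at Cdkn2a.

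Cdkn2d, an INK4-family inhibitor of Cdk4 and Cdk6, had summits at both ends. The shared region lay 306 bp past its 3′ end (chr9:21288122-21288185) and scored 11.1 and 9.73, but it was closer still to the gene Kri1, at 184 bp. At the Cdkn2d start, replicate 1 had a summit 240 bp upstream that scored 26.7, the highest of any summit within 10 kb of a member, and replicate 2 had one 114 bp upstream that scored 8.22. These start summits are 126 bp apart and so fall just outside the sharing distance.

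Cdkn2c, another INK4 inhibitor, had 1 summit of replicate 1 (5.84) and 2 of replicate 2 (3.20 and 8.04) on opposite sides of the gene, 19353 bp apart at the closest. Cdkn1c, the imprinted Kip-family inhibitor, and Cdkn2b, the INK4 inhibitor next to Cdkn2a, had none within 10 kb. Among the retinoblastoma family, Rbl2, which works with E2F repressors in quiescent cells, held a shared region 711 bp past its start (chr8:91070758-91070778), scoring 6.22 and 7.31. Rb1 and Rbl1 had none within 10 kb and a shared region deep in the gene body: 61103 bp from an end of Rb1, scoring 11.7 and 12.5, and 24546 bp from an end of Rbl1, scoring 6.60 and 6.02.

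Activators of the cycle, among which E2f1, E2f2 and E2f3 are counted, had a shared region within 10 kb in 12 of 24 genes (50.0%), and inhibitors, with the retinoblastoma family and the repressor E2F genes, in 5 of 15 (33.3%), beside 20.6% of all genes. Replicate 1 had summits for 18 activators (75.0%) and 6 inhibitors (40.0%), beside 39.4%, and replicate 2 for 19 (79.2%) and 10 (66.7%), beside 41.9%. Within 1 kb, 8 activators (33.3%) and 3 inhibitors (20.0%) had a shared region, beside 8.73%. Summits of replicate 1 were found there for 14 activators (58.3%) and 3 inhibitors (20.0%), beside 18.2%, and those of replicate 2 for 14 activators (58.3%) and 4 inhibitors (26.7%), beside 18.0%. Activators thus had the higher share in both lists within 1 kb and 10 kb, while the inhibitors' share in replicate 1 was close to that of all genes in both windows. The placing of the E2F genes adds to this difference. Shared regions within 10 kb were found for 3 of 3 activator E2F genes and 0 of 5 repressor E2F genes. No repressor E2F gene had a summit of replicate 1 there. With the E2F genes left out, inhibitors have the higher share of shared regions in both windows, and activators keep it in the single lists. Within 50 kb the shares were equal: 16 activators and 10 inhibitors had a shared region, 66.7% of either group, beside 46.8%. Inside the genes, 4 activators (16.7%) and 4 inhibitors (26.7%) had a shared region, beside 13.7%. Replicate 1 had summits in 7 activators (29.2%) and 4 inhibitors (26.7%), beside 26.3%. Replicate 2 had them in 8 activators (33.3%) and 7 inhibitors (46.7%), beside 28.4%, so there the inhibitors had the higher share. Whether activators and inhibitors differ was not tested.

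The E2F family divides by function. E2f1, E2f2 and E2f3, which turn on replication genes, each had a shared region within 1 kb of the gene. At E2f1 the summits lay 757 bp and 727 bp upstream of the start with scores of 10.9 and 10.8 (chr2:154570153-154570183), at E2f2 they lay 26 bp and 113 bp past the start with scores of 9.63 and 12.6 (chr4:136172300-136172387), and at E2f3 200 bp and 183 bp upstream with scores of 7.46 and 8.74. The repressor genes E2f4, E2f5, E2f6, E2f7 and E2f8 had no shared region within 10 kb and no summit of replicate 1 there. Replicate 2 had summits beside 4 of the 5, which scored 4.82 at E2f4, 6.58 and 10.3 at E2f5, 3.66 at E2f6 and 5.79 at E2f7. E2f8 had none in this window. Within 10 kb, replicate 1 and the shared regions thus marked 3 of 3 activator genes against 0 of 5 repressor genes, beside 39.4% and 20.6% of all genes. Replicate 2 marked 3 of 3 against 4 of 5, beside 41.9%. Within 50 kb the counts were 3 of 3 against 5 of 5 in either replicate, beside 69.3% (replicate 1) and 72.4% (replicate 2) of all genes. For shared regions within 50 kb they were 3 of 3 against 2 of 5 (40.0%), beside 46.8%. The E2f2 summits are 87 bp apart, so a sharing distance of 50 bp would not count them. The difference between these small classes was not tested.

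Cdk7 is the catalytic part of the CDK-activating kinase and also serves general transcription. It had no summit within 10 kb in either list, and 1 of replicate 1 and 2 of replicate 2 within 50 kb.

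Around transcription starts, members had summits mostly on the upstream side. Annotated starts with a promoter window were available for 31 of the 41 genes and for 17492 of all protein-coding genes. In the 1 kb upstream, 10 of the 31 members (32.3%) had a summit in replicate 1 against 14.2% of all genes, and 10 (32.3%) in replicate 2 against 13.4%. A shared region lay there for 6 members (19.4%) against 7.28% of all genes, and in the 1 kb downstream for 2 members (6.45%) against 1.98%. In the 300 bp upstream, 4 members (12.9%) had a shared region against 6.01%, namely Ccne1, Cdkn3, E2f3 and Cdc25a. Over all genes, summits were most frequent 100 to 200 bp upstream of the start in both lists, at 4.53 and 4.11 per 100 starts, the fullest 100 bp bin within 1 kb of a start.

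**Figure D3:**
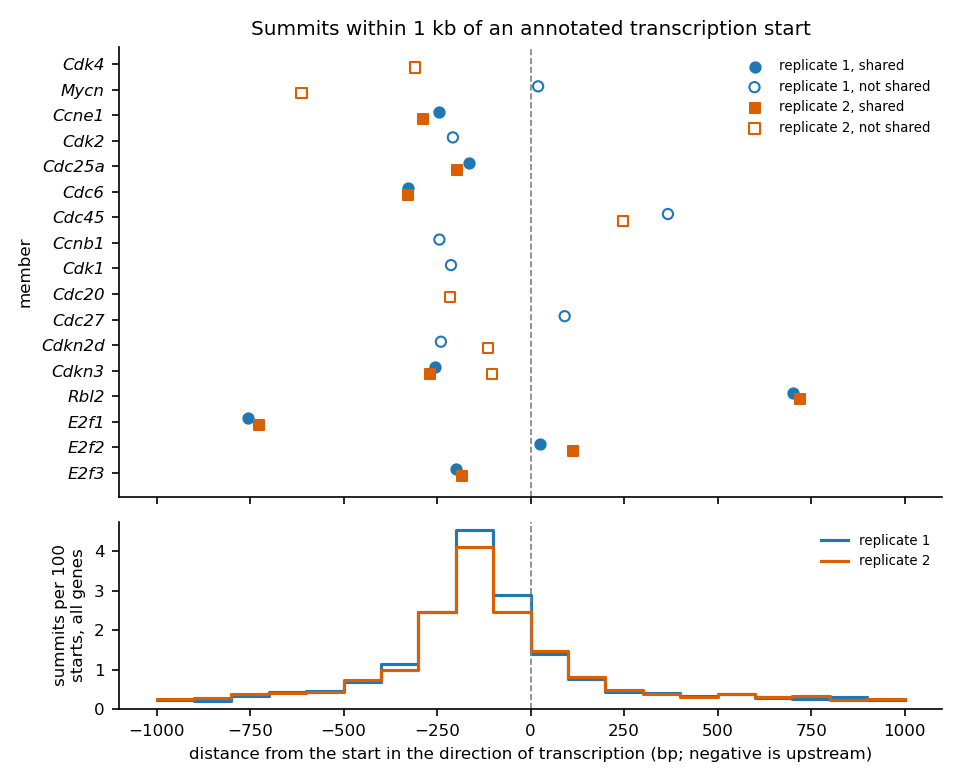
Upper panel, summits within 1 kb of an annotated start for the members that have one, by distance in the direction of transcription (bp). Lower panel, summits per 100 starts over all protein-coding genes with a promoter window, in bins of 100 bp. The summits of Ccne1, Cdc25a, E2f3 and Cdkn3 lie between 165 and 289 bp upstream, apart from 1 unshared summit of Cdkn3, beside the peak of the profile over all genes.

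The 4 promoters with a shared region in the 300 bp before a start are shown because the summits of both replicates fall in or beside the printed stretch. The sequences are those of RefSeq for GRCm38.p6, read 5′ to 3′ on the strand of the gene, and start 250 bp before the annotated start. Capitals mark matches on either strand to CCAAT, to TTTCCCGC or TTTGGCGC (E2F sites) and to TTTGAA (the cell-cycle homology region, or CHR). They are Ccne1 at chr7:38107491-38107740 (minus strand), Cdc25a at chr9:109875329-109875547 (plus strand), E2f3 at chr13:29986064-29986313 (minus strand) and Cdkn3 at chr14:46760291-46760490 (plus strand).
Ccne1: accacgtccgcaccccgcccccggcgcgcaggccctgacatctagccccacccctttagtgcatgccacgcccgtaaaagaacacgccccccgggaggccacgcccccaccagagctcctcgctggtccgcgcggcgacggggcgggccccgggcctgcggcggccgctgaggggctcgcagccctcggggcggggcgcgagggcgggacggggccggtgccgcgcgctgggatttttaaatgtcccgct
Cdc25a: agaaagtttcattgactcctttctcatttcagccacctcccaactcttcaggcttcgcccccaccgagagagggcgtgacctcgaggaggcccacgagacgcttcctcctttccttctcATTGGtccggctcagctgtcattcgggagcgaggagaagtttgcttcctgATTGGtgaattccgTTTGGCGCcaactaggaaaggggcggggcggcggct
E2f3: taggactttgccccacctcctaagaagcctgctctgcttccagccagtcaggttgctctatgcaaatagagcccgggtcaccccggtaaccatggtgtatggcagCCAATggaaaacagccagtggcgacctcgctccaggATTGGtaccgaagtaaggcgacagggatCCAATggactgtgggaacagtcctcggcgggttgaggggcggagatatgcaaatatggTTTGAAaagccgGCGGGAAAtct
Cdkn3: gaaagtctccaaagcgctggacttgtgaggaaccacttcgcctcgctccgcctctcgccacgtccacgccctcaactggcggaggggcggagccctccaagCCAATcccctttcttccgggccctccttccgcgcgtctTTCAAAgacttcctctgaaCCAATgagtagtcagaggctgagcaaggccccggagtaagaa
In Ccne1, whose window from 250 bp before to 50 bp after the start has 76.0% G and C, no match to these motifs lies in the printed stretch. Its replicate 1 summit falls 245 bp before the start, at the 5′ edge of the stretch, and its replicate 2 summit just beyond, at 289 bp. In Cdc25a the summits at 165 bp and 198 bp lie upstream of all 3 matches, the E2F match beginning 67 bp before the start. In E2f3 the summits at 200 bp and 183 bp also lie upstream of 3 CCAAT boxes, a CHR match and an E2F match that begins 11 bp before the start. In Cdkn3 the shared summits fall just beyond the 5′ edge, at 257 bp and 269 bp, and the single summit of replicate 2 at 103 bp lies between the CHR match and the second CCAAT box.

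Across the promoter windows of the 31 members, which run from 250 bp before to 50 bp after each start, the HNF4 motif was not found. None held CAAAGTCCA, CAAAGTTCA or CAAAGGTCA on either strand, and 0.520%, 0.429% and 0.497% of all genes with a window did. These exact strings are rare and cover only some sequences that the factor can bind, and the windows do not reach all summits, so no match says only that these letters are absent from the windows. The forkhead motif TGTTTAC was found on either strand in 2 members, Ccnd3 and Cdc45 (6.45%), and in 3.45% of all genes. The AP-1 motif TGANTCA, where N is any base, was found in 0 members and in 8.12% of all genes.

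The motifs of cell-cycle regulation, searched on both strands, were found in more of the 31 members. The E2F motif TTTCCCGC occurred in 5 members (16.1%; Cdk2, Cdkn2a, E2f3, E2f7 and Cdc6) and in 1.61% of all genes. TTTGGCGC occurred in 3 (9.68%; E2f2, Cdc25a and Mycn) and in 0.726%. Both strings hold a CG, and the members' windows are richer in CpG (median ratio 0.849 against 0.567). Whether CpG content accounts for these shares was not tested. Cdk2, E2f2, E2f3, Cdc6, Cdc25a and Mycn had an E2F match in the window and a summit within 1 kb of the start in at least 1 list. That of Cdk2 was in replicate 1 only, and those of Mycn scored 2.44 and 2.95. Cdkn2a and E2f7 had a match but no such summit. Ccne1, Cdkn3, E2f1 and Rbl2 had shared summits within 1 kb of the start without a match. Ccnb1, Cdk1, Cdk4, Cdkn2d, Cdc20, Cdc27 and Cdc45 had unshared summits there, also without a match. How often all genes with an E2F match have a summit within 1 kb of the start was not counted. TTTGAA, the CHR, occurred in 12 members (38.7%) and in 18.5% of all genes, and CCAAT in 19 (61.3%) and in 42.3%. The E-box CACGTG, a Myc site, occurred in 5 members (16.1%), with 4 copies in the Cdk4 window, and in 8.91% of all genes. TATAAA was less frequent in the members, with 2 (6.45%) beside 14.8% of all genes. None of the matches was tested as a site of binding.

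**Figure D4:**
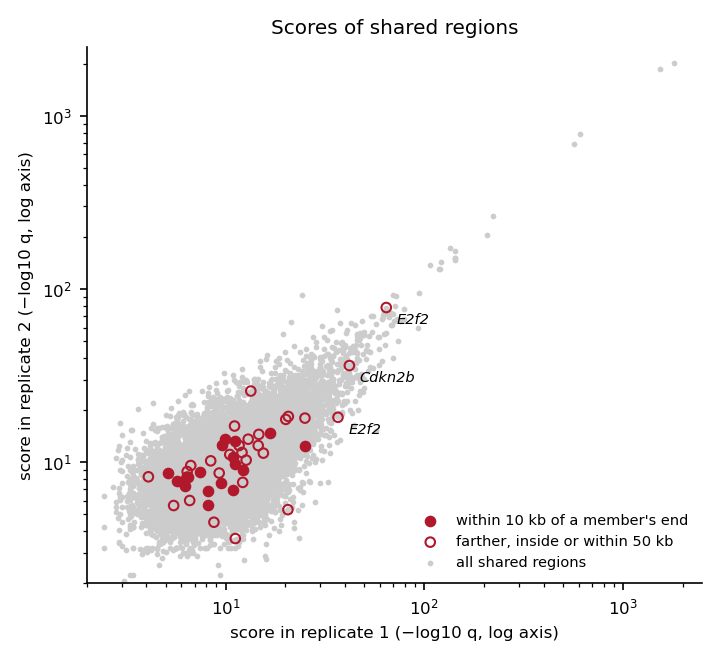
Scores of the 9193 shared regions in replicate 1 and replicate 2, on log axes, with regions within 10 kb of an end of a member as filled circles and those farther away, inside or within 50 kb of a member, as open circles. The filled circles stay at or below 25.1 in replicate 1 and 14.8 in replicate 2, and the 3 labelled open circles, named by the member they lie beside, reach higher.

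The best-scored regions around the members were not at their promoters. Beside the members, 17 shared regions within 10 kb had median scores of 9.63 (replicate 1) and 8.74 (replicate 2), against 9.98 and 9.63 for the 3593 regions within 10 kb of any gene. The 46 regions inside or within 50 kb had medians of 11.0 and 9.96, against 9.93 and 9.61 for all shared regions. The medians near the members were therefore close to those of the list.

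The strongest lay 48839 bp upstream of E2f2 (chr4:136123427-136123443) with scores of 64.4 and 78.3, which rank 33 in replicate 1 and 21 in replicate 2. Its nearest gene is Id3, an inhibitor of basic helix-loop-helix factors, at 20387 bp. A second region 10150 bp past the 3′ end of E2f2, just outside the 10 kb window, scored 36.8 and 18.2, and lay 143 bp from Asap3. E2f2 is thus flanked by stronger regions than the one at its start, both nearer to other genes.

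The next lay 40783 bp upstream of Cdkn2b (chr4:89351814-89351816), with summits 2 bp apart and scores of 42.0 and 36.2. Cdkn2b was the nearest protein-coding gene, and a weaker region 48688 bp upstream scored 6.08 and 7.67. The region inside Cdkn2a is 18275 bp from Cdkn2b and is counted for both genes. Cdkn2b, with no summit within 10 kb, therefore had 3 shared regions within 50 kb.

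Among the other members without a shared region within 10 kb, E2f8 had one 35534 bp from the gene (chr7:48917602-48917612) that scored 25.1 and 18.0, with E2f8 as the nearest gene. Cdkn1c had one at 38343 bp that scored 13.4 and 25.8 but lay inside Kcnq1, the gene that hosts the imprinting centre of that domain. Ccnd1 had one at 24168 bp (chr7:144963981-144964018) with scores of 14.6 and 12.5, and E2f6 one at 14533 bp with 14.7 and 14.5, each nearest to that member. Myc had one at 48719 bp with 12.1 and 11.4 and one at 38211 bp with 8.74 and 4.51, both with Myc as the nearest gene. Ccna2, Cdc20, Cdc25b and Rbl1 complete the 10 members with a shared region within 50 kb but none within 10 kb, and the better-ranked regions of Ccna2 and Cdc25b scored 6.41 and 8.22, and 12.2 and 7.66. These regions of Ccnd1, E2f6, E2f8 and Myc, and the upstream ones of Cdkn2b, were thus not closer to any other protein-coding gene. Some members with a region within 10 kb also had distal ones, such as Ccne1 at 20733 bp (11.1 and 16.2), Cdk4 at 21462 bp (20.6 and 5.33, inside Mettl1) and E2f1 at 33959 bp (10.5 and 11.1, beside Pxmp4).

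**Figure D5:**
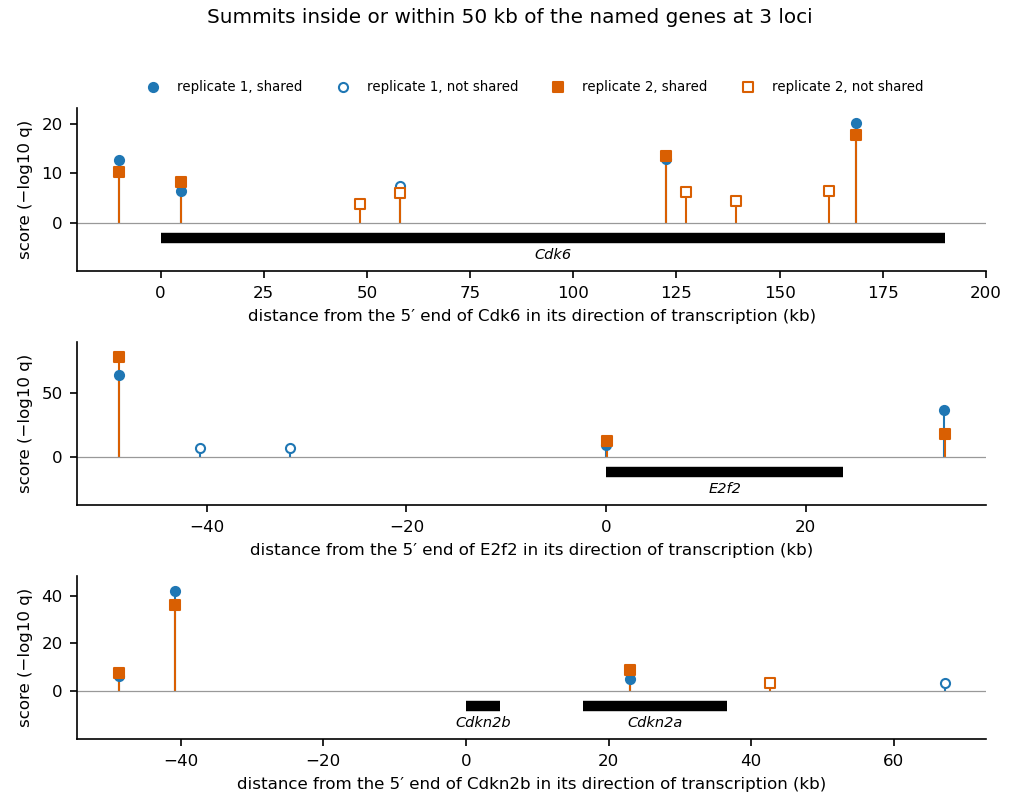
Scores of summits at the Cdk6, E2f2 and Cdkn2b to Cdkn2a loci, by distance from the 5′ end of the gene in its direction of transcription (kb), with black bars for the genes and filled symbols for shared summits. Cdk6 carries 3 shared regions inside the gene, and the highest symbols at the other loci stand 48839 bp upstream of E2f2 and 40783 bp upstream of Cdkn2b.

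In all, 13 of the 41 genes had no shared region inside or within 50 kb: Ccnb1, Ccnb2, Ccne2, Cdk1, Cdk7, Cdkn2c, E2f4, E2f5, E2f7, Cdc7, Cdc27, Cdc45 and Mycn. The other 28 (68.3%) had one, beside 47.9% of all protein-coding genes, so lacking one was more common among all genes than among the members. Neighbouring genes limit what can be assigned to a member. Of the 17 shared regions within 10 kb, 13 had the member as the nearest protein-coding gene, and those at Ccnd3, Cdk2, Cdk4 and Cdkn2d did not. Cdk4 has 9 other genes within 50 kb and Cdk2, Ccnd3 and Cdkn2d have 6 each, while Ccne1 and E2f3 have 0.

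The replicates agreed on part of the summits beside the members. Of the 29 summits of replicate 1 within 10 kb of a member, 17 were shared, or 58.6% (95% exact binomial interval 38.9 to 76.5), against 44.4% of those within 10 kb of any gene. Of the 45 summits of replicate 2, 17 were shared, or 37.8% (23.8 to 53.5), against 40.8%. Both intervals hold the value over all genes, and they cover counting error only. The 12 unshared summits of replicate 1 had a median score of 6.18 and the 28 of replicate 2 one of 4.78, below the medians of the shared ones. Unshared summits of replicate 2 not given above scored 3.19 and 4.21 at Cdkn2d, 3.19 at Cdkn2a, 5.29 and 8.62 at Cdc25c and 3.28 at E2f3. Replicate 2 thus placed more and weaker summits beside these genes, and 6 members (Ccnb2, E2f4, E2f5, E2f6, E2f7 and Cdc20) had summits in replicate 2 alone within 10 kb, while none had summits in replicate 1 alone. Over all protein-coding genes replicate 2 also reached more within 10 kb, 41.9% against 39.4% for replicate 1. The share of all genes with summits in 1 list alone was not counted, so this split is not read as particular to the members.

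A further 55 genes of the cell cycle, such as the Mcm and Orc genes of replication origins and the spindle checkpoint genes, were counted in the same way. A shared region within 10 kb was found for 20 of the 55 (36.4%), and summits for 34 (61.8%) in replicate 1 and 40 (72.7%) in replicate 2, beside 20.6%, 39.4% and 41.9% of all genes. Their best regions lay 4199 bp from Tfdp1, the dimer partner of E2F factors (48.4 and 65.9, nearest to Atp4b), inside Orc4 (21.3 and 64.6), 354 bp from Gins2 (18.9 and 29.6) and inside Skp2, which directs the degradation of Cdkn1b protein (18.0 and 22.0). Within 1 kb of an end, 10 of the 55 (18.2%) had a shared region, beside 26.8% of the 41 members and 8.73% of all genes.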

How the data were processed

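ChIL-seq of Hnf4a in 2 iHepC samples gave 1 deposited list of 1-bp summits per sample. Per the submitters' processing notes, the authors used fastp 0.23.4, HISAT2 2.0.5 and MACS2 2.2.9.1 with build mm10. The deposited score is −log10 of the q-value, and peak names state q 0.01 as the threshold. Use of a control library and removal of duplicates are not given in the sources used here, and depth is unknown.

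Summits of both lists within 100 bp were merged, and a region with a summit of each was shared. Its midpoint, or a single summit, was placed against both ends of each of 21887 protein-coding genes (RefSeq, GRCm38.p6). This table has no strand, so starts and strands came from RefSeq promoter windows, held for 31 of 41 members. Phase and action groups followed textbook roles; Cdc20 and Cdc27 are in neither action group. Every member is accounted for, and shared regions within 10 kb are given by distance and both scores, while only the better-ranked distal regions are named. The members and lists were chosen with earlier results of these data known. With 1 group, no test between groups was made. Counting was tested on simulated data. Alternatives varied sharing distance, score, window, gene assignment, replicate, background genes and strands searched; a 1 kb window and a CpG-rich background were added after seeing the data. Python 3.11.15, numpy 2.4.6, pandas 2.3.3, scipy 1.17.1 and matplotlib 3.10.9 were used. A distal region within that rule is not reported here.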

Additional observations from a re-analysis of the deposited data

How the results depend on the processing

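Of 146 alternative values, 117 stayed within 1.5 times the reported count or within the interval of the share. The 117 include settings that moved no count, so they overstate stability. Leaving out olfactory receptor genes changes only the share of all genes. Leaving out regions that scored over 100 in both replicates removed none beside a member. Giving each region to its nearest member changed no count. The 17 members with a shared region within 10 kb became 11 with sharing within 50 bp (15.2% of all genes), 9 with the 10000 best summits of each list (12.0%) and 11 with a 1 kb window (8.73%). G1 genes, 4 as reported, became 2 with 50 bp, 1 with 1 kb (14.3%, the same share as the mitotic genes) and 2 when only the nearest gene counted. S-phase genes, 4 as reported, became 1 of 8 (12.5%) with the 10000 best summits, where mitotic genes kept a count of 1 of 7 (14.3%). Mitotic genes, 1 as reported, became 0 with 50 bp, 0 of 6 around annotated starts and 0 of 6 among CpG-rich promoters, where Cdc25c has no window. Activators, 12 as reported, became 7 with the 10000 best summits. Inhibitors, 5 as reported, became 3 with 50 bp, 2 with the 10000 best, 8 with a 20 kb window and 3 with 1 kb. Members with a shared region inside the gene, 8 as reported (13.7% of all genes), became 4 with the 10000 best (8.37%). The share of all genes within 10 kb, 20.6% as reported, also moved with these settings. It was 14.4% with the nearest gene only, 16.5% around annotated starts, 28.3% among CpG-rich promoters and 29.7% with a 20 kb window.

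With each replicate left out, the other's summits count alone, and the share of all genes rises as well. Within 10 kb the range was 25 to 31 members, beside 39.4% to 41.9% of all genes. By group it was 6 to 6 G1, 6 to 6 S-phase and 4 to 6 mitotic genes, 18 to 19 activators and 6 to 10 inhibitors. Within 50 kb it was 39 to 40 members, beside 69.3% to 72.4% of all genes. Inside the gene it was 12 to 15 members, beside 26.3% to 28.4%. The shared percentage of replicate 1 summits became 37.9 with 50 bp, and that of replicate 2 summits 56.7 with scores of 5 or more. Motif matches on the gene's own strand fell to 1 member for TGTTTAC, 1 for TTTCCCGC, 6 for TTTGAA, 10 for CCAAT and 1 for TATAAA.

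No paired analysis was possible because there is 1 group. Windows of 5 and 20 kb do not apply to the 50 kb and inside counts, and other gene assignments were not run for the inside count. Some settings keep fewer summits or genes and others count more, and the cause of these shifts was not tested. Unknown depth and the authors' threshold limit every absence of a summit.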
